A study of Mus musculus with 24 samples.

Results

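A set of 326 chromatin regions was accessible in Tle4-lineage corticothalamic projection neurons (CThPNs) at both early and late ages and was absent from every peak list of Cux2-lineage callosal projection neurons (CPNs). ATAC-seq marks open chromatin by the insertion of sequencing adapters by a transposase, and a peak is a stretch where such insertions pile up above background. Peaks of 12 lists, 1 for each neuron class and age, were merged into 85867 regions wherever they overlapped by at least 1 bp. The members were chosen by peak presence alone: a peak in at least 1 early Tle4 list (E18.5, P1, P3 or P7), a peak in at least 1 late Tle4 list (P21 or P48) and none in any Cux2 list. Presence and absence in these lists are therefore the rule and not a result.

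Both neuron classes came from somatosensory cortex and motor cortex of mice labelled C57BL/6, which the study's methods give as a mixed C57BL/6J background. CThPNs were sorted from Tle4-2A-CreERT2:Ai14 animals and CPNs from Cux2-CreERT2:Ai14 animals, and both genotypes received a 4-HydroxyTamoxifen injection, which released the Cre recombinase that switches on the tdTomato reporter Ai14. Recombination was induced at E17.5 and cells were collected at 6 ages (E18.5 and P1, then P3 and P7, then P21 and P48), with 2 replicates per class and age, each a pool of 10 animals. The Tle4 line marks cells by the activity of the Tle4 gene at induction, and the Cux2 line is known to mark some interneurons besides callosal neurons. By single-cell sequencing of both labelled populations, the study found few cells with an interneuron marker. Its authors concluded that such cells had a minimal effect on their results. Each list was made from the 2 replicates together and holds no value per replicate, so a value below has no replicate error and the list is the unit of every test.

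The Tle4 lists held 6538 to 22441 peaks and the Cux2 lists 21751 to 45644, and read depth per library is not in the lists. A mark, v2, stands on the deposited Cux2 lists and on none from Tle4 neurons, so a difference in processing between the classes cannot be told apart from the class, and membership rests on absence from the Cux2 lists. Of the promoters of 24 genes known for CThPNs or layer 6, between 2 and 7 carried a peak in a Tle4 list and between 4 and 11 in a Cux2 list. Among 20 genes known for CPNs and upper layers, the ranges were 0 to 7 in Tle4 lists and 6 to 14 in Cux2 lists. The Tbr1 promoter, that of a transcription factor of layer 6, had a peak in all 6 Tle4 lists and in 2 Cux2 lists, that of Bcl11b in 1 Tle4 list and 4 Cux2 lists, and that of Foxp2 in 3 of each. The Tle4 promoter had one in all 6 lists of each class, and those of Fezf2 and Sox5 in none of either. Of 16 interneuron genes, 1 had a promoter peak in each Tle4 list, always Adarb2, and between 1 and 8 had one in the Cux2 lists. The Cux2 numbers were 8 at E18.5, 3 at P1, 5 at P3 and 2 at P7, and Adarb2 alone at P21 and P48. Those at E18.5 were Adarb2, Dlx1, Dlx2, Dlx5, Dlx6, Gad2, Lhx6 and Maf. Of 16 glial genes, 0 to 2 had one in Tle4 lists and 0 to 1 in Cux2 lists. The promoter of the interneuron gene Gad2 had a peak in 1 Cux2 list and in no Tle4 list, and those of Gad1, Gfap and Mbp had none in any list.

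CThPNs are excitatory neurons of the deepest cortical layer whose axons end in the thalamus, while CPNs of the upper layers connect the hemispheres. Open regions away from promoters often act as enhancers, which bind transcription factors and can act on genes at a distance. Nuclear factor I (NFI) proteins are a family of such factors with known roles in cortical development, and they bind DNA as dimers in which each partner reads a TTGGCA-like hexamer.

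The sequences that follow are 200-bp windows centred on the summit of the strongest peak in a region, from the forward strand of NCBIM37 (mm9), with every TTGGCA or its reverse complement TGCCAA in capitals. The members assigned to the CThPN genes Bcl11b, Fezf2 and Tle4 are shown because their genes are on the list of CThPN genes, and none of their windows held a match. The next 3 had the highest mean rank of fold enrichment in the Tle4 lists. The remaining 2 are shown for their number of matches. Each label names the nearest protein-coding gene, whatever its distance, and the member labelled Olfm4 lay 989795 bp from a TSS of that gene.
Member near Bcl11b, chr12:109287970-109288169: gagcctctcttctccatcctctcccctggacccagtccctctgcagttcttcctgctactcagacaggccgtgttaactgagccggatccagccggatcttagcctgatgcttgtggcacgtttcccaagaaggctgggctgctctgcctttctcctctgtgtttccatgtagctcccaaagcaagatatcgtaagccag
Member near Fezf2, chr14:13211566-13211765: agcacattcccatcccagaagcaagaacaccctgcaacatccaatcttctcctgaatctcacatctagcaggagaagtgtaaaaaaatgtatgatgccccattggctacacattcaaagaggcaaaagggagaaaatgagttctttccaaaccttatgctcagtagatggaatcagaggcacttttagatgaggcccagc
Member near Tle4, chr19:14496470-14496669: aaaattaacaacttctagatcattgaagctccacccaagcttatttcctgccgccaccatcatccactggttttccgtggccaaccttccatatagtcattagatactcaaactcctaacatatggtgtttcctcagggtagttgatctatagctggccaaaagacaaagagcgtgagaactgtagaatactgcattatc
Member near Sypl, chr12:33688226-33688425: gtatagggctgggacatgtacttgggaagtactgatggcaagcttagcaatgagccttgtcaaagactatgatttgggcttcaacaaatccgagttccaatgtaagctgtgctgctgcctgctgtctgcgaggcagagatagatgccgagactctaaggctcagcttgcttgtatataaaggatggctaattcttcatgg
Member near Cyp2j13, chr4:95730372-95730571: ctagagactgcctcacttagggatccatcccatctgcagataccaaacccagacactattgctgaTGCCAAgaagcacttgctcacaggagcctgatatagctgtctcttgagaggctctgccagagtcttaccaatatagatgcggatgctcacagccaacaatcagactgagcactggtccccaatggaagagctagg
Member near Gm5356, chr8:91724280-91724479: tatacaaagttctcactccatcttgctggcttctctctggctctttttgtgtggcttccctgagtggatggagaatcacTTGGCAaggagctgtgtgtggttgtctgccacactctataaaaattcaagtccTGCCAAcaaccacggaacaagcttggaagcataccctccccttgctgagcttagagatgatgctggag
Member near Gm10062, chr5:25105213-25105412: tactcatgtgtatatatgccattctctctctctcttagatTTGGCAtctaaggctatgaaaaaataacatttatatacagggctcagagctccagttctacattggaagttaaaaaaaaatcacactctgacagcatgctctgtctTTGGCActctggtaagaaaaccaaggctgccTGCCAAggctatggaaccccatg
Member near Olfm4, chr14:81390111-81390310: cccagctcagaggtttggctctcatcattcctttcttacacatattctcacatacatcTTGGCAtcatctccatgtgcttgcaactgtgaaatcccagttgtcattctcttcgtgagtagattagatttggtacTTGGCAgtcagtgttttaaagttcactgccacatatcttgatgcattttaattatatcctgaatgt

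The window labelled Gm10062 held 3 matches, those labelled Gm5356 and Olfm4 held 2 each, and that in the intron of Cyp2j13 held 1. The member with the highest mean rank, near Sypl, had none.

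A peak was present in 179 of the 326 at E18.5, in 208 at P1, in 254 at P3, in 221 at P7, in 106 at P21 and in 291 at P48. P48 therefore held the most members and P21 the fewest, and the P21 list was also the shortest of the 6 lists. Expressed as a share of all regions of a list, the members were 0.915% at E18.5, 1.08% at P1, 1.14% at P3, 1.46% at P7, 1.63% at P21 and 2.46% at P48. In the P21 and P48 lists, they made up 33.7% and 24.7% of the regions without any Cux2 peak, against 4.50% to 9.49% in the early lists. The late lists held 6538 and 11836 peaks and the early ones 15186 to 22441. By the rule, a late region needed a peak in any of 4 early lists, an early one in either of 2 late lists. The contrast is thus tied to the rule and the list lengths, and what lies beyond these was not tested.

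For 220 members, the late peak came from P48 alone, for 35 it came from P21 alone, and for 71 from both. Without the P48 list, 106 members would remain, which makes P48 the list on which the set depends most. All 4 early lists held a peak in 112 members, while 87 members were early in 1 list. The most frequent pattern, in 61 members (18.7%), was presence at every age but P21. A peak at all 6 ages was found in 34 members (10.4%), and 32 members were present at P7 and P48 alone. In all, 35 of the 45 patterns that the rule allows occurred, 7 of them in a single member. Absence of a peak from a list means that it did not pass the reproducibility filter at that age, and whether the chromatin was closed was not measured. A list of pooled cells also cannot tell fewer cells with an open region from a weaker opening in each cell.

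**Figure D1:**
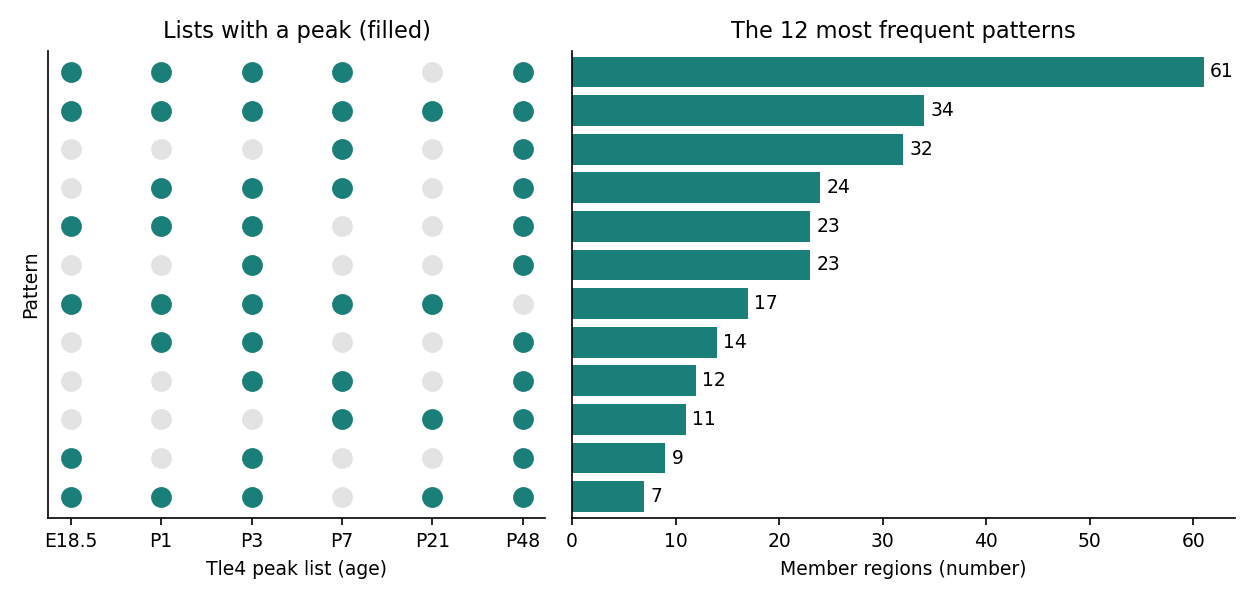
Patterns of peak presence of the members. Left, filled circles mark the Tle4 lists (E18.5 to P48) with a peak in each of the 12 most frequent patterns; right, bars give the number of member regions with that pattern, from 61 for all ages but P21 down to 7.

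Peaks in the members were of middling strength. Each peak was ranked by its fold enrichment over background among all peaks of its own list, on a scale where 50% is the middle of the list. The median percentile of the member peaks was 53.5% at E18.5, 51.5% at P1, 50.1% at P3, 42.8% at P7, 43.1% at P21 and 49.0% at P48. These values lay close to the middle at every age, and the single peaks spread over nearly the whole scale, from 0.133% at P1 to 99.3% at P48. The median fold enrichment ran from 9.34 at P48 to 10.8 at P1, beside 9.38 and 10.7 for all peaks of those lists. The late minus early difference of the list medians was −3.39 percentage points, which did not pass an exact two-sided permutation test over the 15 assignments of lists to stage (p = 0.467, adjusted p = 0.467 over 4 tests). With 2 late lists among 6, the smallest p that this exact permutation test allows is 0.0667. With every list cut to the 6538 strongest peaks, the difference was +6.39 (exact permutation p = 0.0667).

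In the early lists, members ranked above the peaks that were open in Tle4 neurons at early ages alone. The medians of those early-only peaks were 36.0% at E18.5, 37.7% at P1, 39.2% at P3 and 36.3% at P7. By the rule, members also needed a peak in a late list, while early-only regions could have none there. The gap in rank is thus tied to the rule, and whether it goes beyond what repeated detection would give was not tested. Peaks of regions that Cux2 neurons shared had medians of 50.2% to 54.4% across the 6 Tle4 lists, near those of the members. In the late lists, peaks of the late-only regions had medians of 44.7% at P21 and 49.2% at P48, which differed from those of the members by less than 2 points. Ranked by −log10 p instead, members stood at 45.8% to 50.8% in the early lists but at 31.1% at P21 and 33.7% at P48. The 2 measures thus place the late peaks of the members differently.

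**Figure D2:**
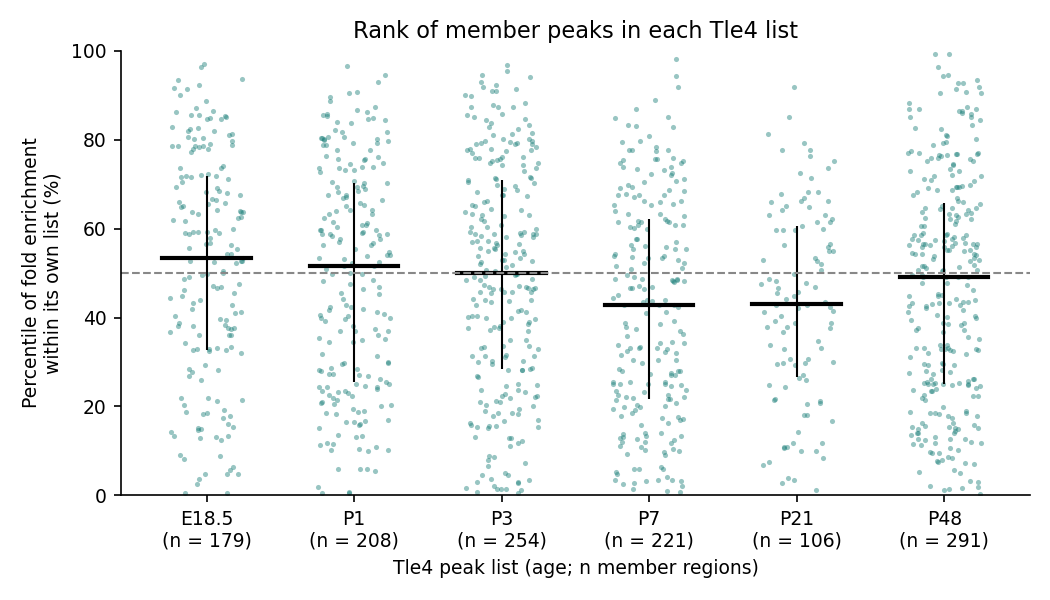
Percentile of fold enrichment of each member (points, strongest peak per region) within each Tle4 list by age. Thick bars are the medians of the list's member peaks, thin lines span the quartiles, and the dashed line is the middle of a list; medians lie between 42.8% and 53.5%.

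The 34 members with a peak at all 6 ages allow the same regions to be followed through time. Their median fold enrichment was 12.6 at E18.5, 12.8 at P1, 11.2 at P3, 10.1 at P7, 10.6 at P21 and 10.1 at P48. As percentiles of each list, the medians were 71.4%, 71.7% and 70.5% at the first 3 ages, 45.8% at P7, 46.7% at P21 and 63.5% at P48. The highest of these members by mean percentile (85.6%) lies at chr8:91723916-91724673, between genes, 12457 bp from the start of Gm5356. Its fold enrichment was 15.2 at E18.5, 14.2 at P1, 15.4 at P3, 14.5 at P7, 11.5 at P21 and 16.9 at P48. The P21 value was the lowest of these and the P48 value the highest. At chr16:81879729-81880661, 446776 bp from the start of Ncam2, which encodes a neural cell adhesion molecule, the fold was 17.9 at E18.5, 17.8 at P1, 13.4 at P3, 15.4 at P7, 10.9 at P21 and 9.70 at P48. Both late values there were below all 4 early ones. At chr16:49380284-49381317, 82777 bp from the start of Gm5407, it was 16.9, 17.1, 15.6, 10.7, 11.9 and 10.1 in order of age, with the first 3 ages above the last 3.

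Other members at all 6 ages lay in or near genes of several kinds. The region at chr11:54315820-54316778 overlapped an exon of Fnip1, a partner of the energy sensor AMPK, and that at chr14:17092621-17093577 an exon of Ngly1, which removes sugar chains from misfolded proteins. Introns of Lmo7, Fmn1, Scfd2, Syne2, Hs3st1 and Slc15a5 held a member each. The region at chr14:34029216-34030691 covered a transcription start site (TSS) and UTR of Arhgap22. Of the 34, 3 were promoter regions by the rule used here, 3 were exonic, 9 intronic and 19 intergenic.

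The member with the highest mean percentile of all (93.2%) was intergenic, at chr12:33688004-33688788, 48955 bp from the nearest TSS of a coding transcript of Sypl and 37733 bp from one of any of its transcripts, a relative of the synaptic vesicle protein synaptophysin. Its fold enrichment was 19.5 at E18.5, 19.04 at P1, 15.9 at P3, 19.02 at P7 and 12.8 at P21, and it had no peak at P48. The next (89.0%) lay in an intron of Cyp2j13, a cytochrome P450 gene, at chr4:95730027-95730860, with folds of 14.5 at P1, 14.9 at P3, 14.1 at P7, 13.6 at P21 and 14.2 at P48. That region changed little from P1 to P48 and was absent at E18.5. The others of the 10 highest lay in introns of Sp4, a zinc-finger transcription factor of neurons, of Astn2, a gene for neuronal migration along glia, and of Wdr67, at a small U7 RNA gene far from Flrt2, and between genes nearest to Tbl1xr1, Olfm4 and Sept7. Their mean percentiles ran from 81.6% to 84.0%, besides that near Gm5356.

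Most members lay away from promoters. A TSS of any annotated transcript was within 1 kb of 19 members, or 5.83% (95% Wilson interval 3.76% to 8.92%, counting error alone), against 16.6% of all regions. Exons held 16 members (4.91%), introns 103 (31.6%) and intergenic sequence 188 (57.7%), and of all regions 43.2% were intergenic. The median distance to the nearest TSS of a coding transcript, the measure given here for nearest genes, was 64950 bp for members and 35670 bp for all regions. More than 100 kb separated 132 members (40.5%) from any such start, compared with 27.8% of all regions. Early-only Tle4 regions were as distal as the members, with 57.4% intergenic, a median of 77230 bp and 43.3% beyond 100 kb. Late-only Tle4 regions had 45.05%, 35630 bp and 28.1%, near the values of all regions. Promoter members included those of the transcription factor gene Zfp385b, the phosphatase gene Ptpn13, the RNase gene Zc3h12a, the actin regulators Wasf2 and Kank1, and the septin gene Sept4. These were named after their values were seen.

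Compared with the other regions of the same Tle4 list, members held fewer promoters at every age. At E18.5 the shares were 5.03% and 38.0%, at P1 5.29% and 39.6%, at P3 4.33% and 38.8%, at P7 5.88% and 38.7%, at P21 6.604% and 51.6% and at P48 5.84% and 39.1%, with the members first. The members were below the other regions at each age. The mean difference was −35.5 percentage points, lower in 6 of 6 lists (exact two-sided sign-flip test over lists, p = 0.0313, the smallest it can give, adjusted p = 0.0417 over 4 tests). The lists share most of their regions, so they are not independent repeats and the test describes these lists. Most of the other regions had a Cux2 peak, which the rule denies to members. Among regions with early and late Tle4 peaks, the promoter share was 72.1% for those in all 6 Cux2 lists. The direction of the difference is thus tied to the rule, and the test does not set members apart from other regions without a Cux2 peak. Regions open in Tle4 neurons at early ages alone and at late ages alone had promoter shares of 4.27% and 6.36%, on either side of the members' share and within its interval.

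A further comparison was with the 7408 regions that mirror the rule for the other class, present at early and late ages in Cux2 lists and in no Tle4 list. Their promoter share at each age was 18.6%, 17.8%, 15.1%, 10.5%, 7.998% and 14.3% from E18.5 to P48. The members were lower in 6 of 6 ages, by 8.55 percentage points on average (exact two-sided sign-flip test, p = 0.0313, adjusted p = 0.0417), with the gap narrowest at P21 (−1.40) and widest at E18.5 (−13.6). The difference did not hold under other choices of peaks, which also change the members: with every list cut to the 6538 strongest peaks, it was +2.14 points (exact sign-flip p = 0.594), and with all peaks held to the same lowest −log10 p, it was +0.288 (exact sign-flip p = 0.906).

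GC content was lower in members than in those Cux2 regions in the lists as deposited, and not with equal list lengths. The median GC content of the members was 42.0%, with quartiles of 38.9% and 46.0%, beside 45.2% for all regions, 42.3% for early-only and 45.6% for late-only Tle4 regions. By age, the members' medians stayed within 41.8% and 42.0%, while those of the Cux2 regions ran from 46.4% at E18.5 to 43.5% at P21 and 45.4% at P48. The mean difference was −3.04 percentage points, lower in 6 of 6 ages (exact two-sided sign-flip test, p = 0.0313, adjusted p = 0.0417), and with equal list lengths it was +0.479 (exact sign-flip p = 0.531). The ratio of observed to expected CpG dinucleotides had a median of 0.169 in members and 0.231 in all regions. It was 0.178 in early-only and 0.175 in late-only Tle4 regions. Regions with a GC content over 50% and a CpG ratio over 0.6, as in CpG islands, numbered 3 of 326 members (0.920%) and 10.1% of all regions. In early-only and late-only Tle4 regions the share was 1.02% and 0.505%.

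The clearest sequence feature of the members was the NFI motif. Of 21 motifs searched on both strands in the 200-bp windows, TTGGCA was found in 125 members, or 38.3% (Wilson interval 33.2% to 43.7%), and in 16.7% of all regions. Of the 21, its share differed most in percentage points from that in all regions, and it was singled out for that reason, so its tests were added after its values were seen. The share was 29.9% in early-only Tle4 regions (28.8% to 31.1%), 29.4% in late-only Tle4 regions (26.6% to 32.3%) and 13.2% in Cux2-only spanning regions (12.5% to 14.0%). In the lists as deposited, the members' interval lay above each of these. The members' share was 31.1% without the Tle4 P48 list and 22.6% with equal list lengths. Shares of early-only and late-only Tle4 regions under those settings are not given here, so the gap to them rests on the deposited lists. At least 2 matches were present in 5.83% of members and in 0.877% of the Cux2-only spanning regions. The palindrome of TTGGC and its reverse complement across 5 bases, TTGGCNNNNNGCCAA, was in no member and in 0.0117% of all regions. A match is a run of letters and does not show that a protein was bound.

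At each age, the motif was more frequent in members than in the Cux2-only spanning regions. The member shares were 43.6% at E18.5, 39.9% at P1, 40.2% at P3, 34.8% at P7, 31.1% at P21 and 40.2% at P48, and those of the Cux2 regions 15.7%, 13.7%, 12.6%, 12.5%, 13.2% and 13.0%. The lowest member share, at P21, was above the highest Cux2 share, at E18.5. The mean difference was 24.9 percentage points, higher in 6 of 6 ages (exact two-sided sign-flip test, p = 0.0313, the smallest it can give). That p does not carry the choice of this motif among 21 on the same members, so the difference is a description of these lists. It was 25.9 points among regions more than 1 kb from a TSS, 17.7 with a common lowest −log10 p and 11.2 with equal list lengths, each with the members higher at all 6 ages (exact sign-flip p = 0.0313). The sets under other peak choices shared regions with the members described here. With equal list lengths, the motif was in 39.2% of the regions that overlapped these members and in 20.1% of the rest. With the common lowest −log10 p, the shares were 38.9% and 25.7%. Within the Tle4 lists, the regions of the same stage alone had shares of 33.9%, 29.1%, 27.7% and 26.9% from E18.5 to P7, 26.3% at P21 and 29.8% at P48, below the members of the same list at every age, a difference that was given no test. The P21 shares rest on 106 members and 209 late-only regions, the fewest of any Tle4 list.

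**Figure D3:**
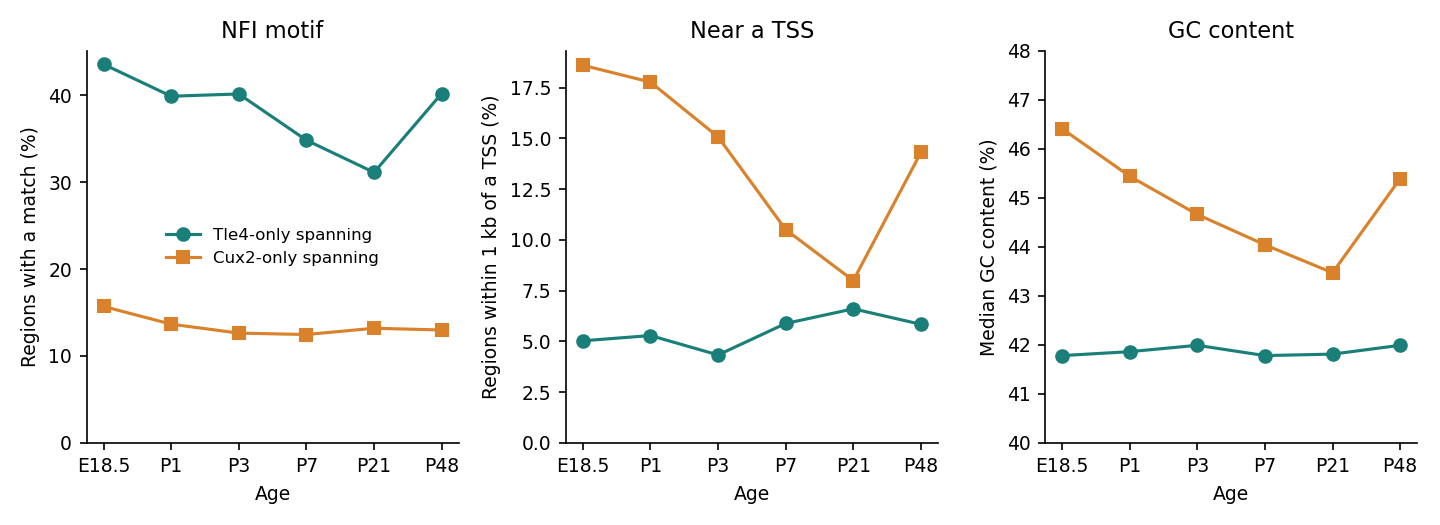
Members (Tle4-only spanning, circles) and Cux2-only spanning regions (squares) by age, each point the value of the regions with a peak in that class's list. Left, share with the NFI motif in 200 bp; centre, share within 1 kb of a TSS; right, median GC content on an axis that does not start at 0. The motif share of members, 31.1% to 43.6%, lies above that of Cux2 regions, 12.5% to 15.7%.

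The matches were gathered at the summits. In the bins of 50 bp within 100 bp of the summit, members had 11.3 matches per 100 regions and bin on average, and beyond 200 bp 2.99, a ratio of 3.77. The ratio was 2.79 in early-only and 2.90 in late-only Tle4 regions and 1.30 in Cux2-only spanning regions. Beyond 200 bp, the 4 groups differed little, from 2.77 to 3.21 matches. The highest bin of the members, just before the summit, held 17.8 matches per 100 regions, and the same bin of the Cux2-only spanning regions 4.31.

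**Figure D4:**
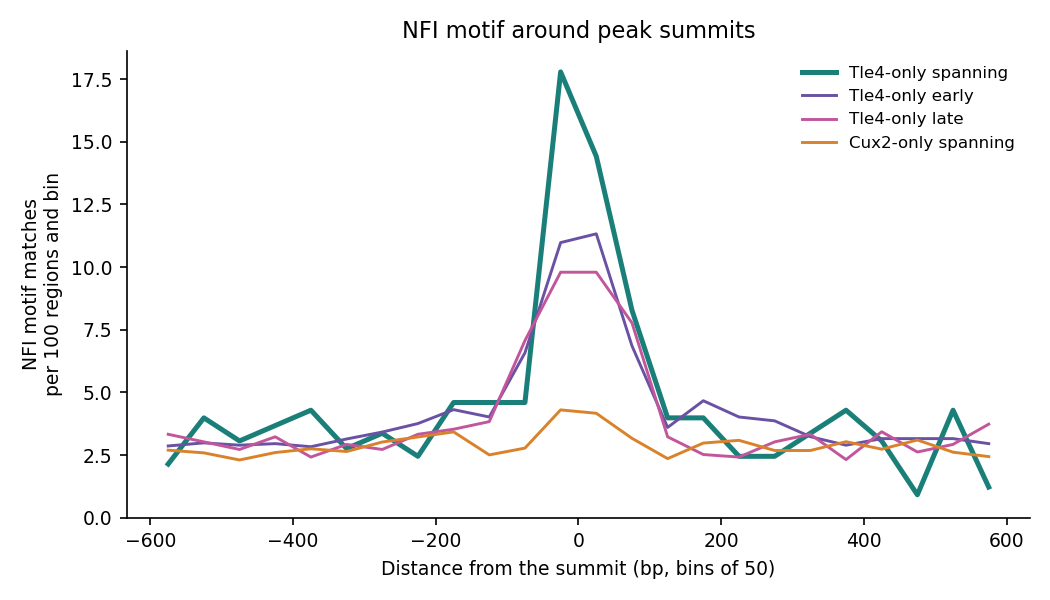
Matches to the NFI motif on either strand around peak summits, per 100 regions in bins of 50 bp, against the distance from the summit in bp. The curve of the members peaks at 17.8 matches beside the summit, those of early-only and late-only Tle4 regions reach 11.3 and 9.80, and that of Cux2-only spanning regions stays at or below 4.31.

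A search without a motif list gave the same letters. Every 8-letter word was counted in the windows of members and of all regions, with its reverse complement, and ordered by the excess in members over the number that all regions would give. The first 8 words all held TTGGC or GCCAA. They were led by TTGCCAAA, in 18 members (5.52%) and 1.23% of all regions, CTTGGCTC, in 22 members (6.75%) and 1.79%, and CTGCCAAG, in 27 members (8.28%) and 2.58%. Of the first 20 words, 9 held that core. The words overlap one another and were chosen by their excess, so this order is a description.

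The motif followed the number of Cux2 lists that shared a region. Among the 8438 regions with early and late Tle4 peaks, the motif was in 38.3% of the 326 without a Cux2 peak, in 30.6% of the 235 in 1 Cux2 list, in 25.6% of 587 in 2, 23.8% of 480 in 3, 17.7% of 547 in 4, 12.4% of 990 in 5 and 8.69% of 5273 in all 6. The promoter share rose along the same order, from 5.83% to 72.1%. Leaving out promoter regions, the motif shares were 40.1%, 31.2%, 26.2%, 26.6%, 21.6%, 15.5% and 13.3%. The 7 values lay in falling order except between 2 and 3 lists.

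**Figure D5:**
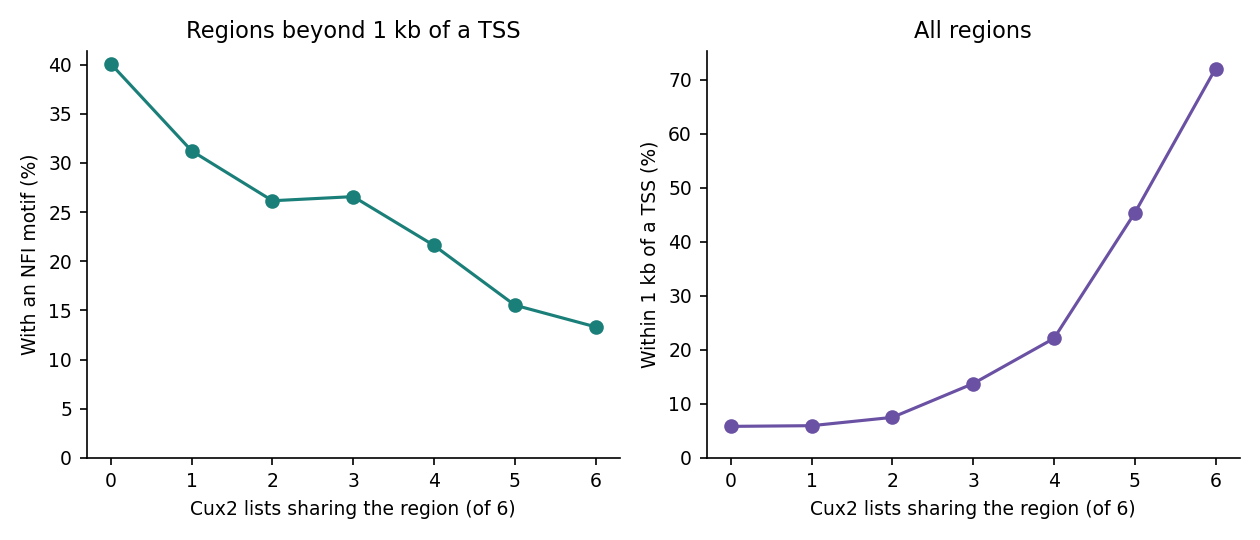
Regions with early and late Tle4 peaks by the number of Cux2 lists (0 to 6) that share them; the members are at 0. Left, share with the NFI motif among regions beyond 1 kb of a TSS, from 40.1% to 13.3%; right, share of all these regions within 1 kb of a TSS, from 5.83% to 72.1%.

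Several other motifs were less frequent in members than in all regions. TGANTCA, bound by the activity-dependent AP-1 factors, was in 26 members (7.98%, interval 5.50% to 11.4%), compared with 13.7% of all regions, 6.12% of early-only and 17.8% of late-only Tle4 regions. AGGGGGC, a core of the site of the insulator protein CTCF, was in 2 members (0.613%, interval 0.168% to 2.21%) and 4.34% of all regions. It was in 1.33% of early-only and 2.42% of late-only Tle4 regions, and in 2.83% of all regions beyond 1 kb of a TSS. GTGGGCG, read by EGR factors, was in 1 member and 3.41% of all regions, and TAATTA, read by many homeodomain factors, in 6 members (1.84%) and 5.06%. The EGR motif was in 0.432% of early-only and 1.41% of late-only Tle4 regions, and in 1.98% of all regions beyond 1 kb of a TSS. For TAATTA, early-only and late-only Tle4 regions had 4.16% and 2.73%. Low shares of the CTCF and EGR motifs were thus not particular to the members. The proneural E-box CAGATG was in 23.9% of members and 25.5% of all regions. ATCGAT, a site of CUT-domain factors such as the CUX proteins, was in 5 members (1.53%, interval 0.657% to 3.54%), in 0.360% of all regions and in 0.149% of Cux2-only spanning regions. The shares in early-only and late-only Tle4 regions, 0.910% and 0.707%, lay within the members' interval. The T-box motif GGTGTGA, the kind of site that Tbr1 reads, was in 4.60% of members and 3.17% of all regions, with an interval of 2.81% to 7.45% that holds the latter.

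A protein-coding gene counted as having a member if the member was within 100 kb of one of its TSSs or in its body, which held for 524 of 22225 genes, or 2.36%. Of the 24 CThPN and layer 6 genes, 3 had a member (12.5%), namely Bcl11b, Fezf2 and Tle4. None of the 20 CPN and upper-layer genes had one. Of the 16 interneuron genes and the 16 glial genes, 1 each had one, Adarb2 and the myelin gene Mog. Of 73 axon guidance genes, 2 did (2.74%), Sema3b and Sema3f, through the same region. Of 82 potassium channel genes, 3 did (3.66%), and of 29 glutamate receptor genes, 2 (6.90%). With so few genes per list, these shares are counts beside the background and not a result about the lists.

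The member assigned to Tle4, the transcriptional corepressor gene that drives the Cre line, was intergenic at chr19:14495703-14497027, 31180 bp from a TSS of the gene. Its fold enrichment was 10.3 at E18.5, 9.48 at P1, 7.28 at P3, 7.40 at P7 and 9.39 at P21, with no peak at P48, and its percentiles ran from 10.1% to 46.6%. For Bcl11b, which encodes the transcription factor CTIP2 of deep-layer neurons, the member was at chr12:109287646-109288379, 45834 bp from a TSS. The fold there was 13.6 at E18.5, 10.8 at P1, 10.5 at P3, 10.5 at P7 and 8.77 at P48, with no peak at P21, and the latest value was the lowest. The member assigned to Fezf2, a selector gene of deep-layer projection neurons, lay 31358 bp from its TSS in an intron of the neighbouring gene Cadps, at chr14:13209737-13212223. It was among the weakest members, with folds of 5.78 at E18.5, 7.57 at P1, 5.38 at P3, 6.60 at P7 and 7.13 at P48 and a mean percentile of 4.92%. All 3 were present in 5 of the 6 Tle4 lists.

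Among the ion channel and receptor genes, Gria4, an AMPA receptor subunit, held 2 intronic members, at chr9:4458035-4458803 with peaks at E18.5, P21 and P48 and at chr9:4631931-4632672 with peaks at E18.5, P1, P3 and P48. Their folds were 11.5, 10.2 and 10.6 for the former and 9.58, 10.2, 10.6 and 9.94 for the latter. Grm3, a metabotropic receptor, held 1 in an intron. A pair of members lay 70523 and 83612 bp from a TSS of Kcnc4, a fast voltage-gated potassium channel gene, and within 100 kb of Rbm15, Slc16a4 and Slc6a17 as well. The voltage-gated Kcna4 and the calcium-activated Kcnn1 had 1 member each, 12848 and 77752 bp from a TSS. Fbxo15 was the nearest protein-coding gene of 3 members, the most for any gene, although they lay 412144 to 603884 bp from it on chromosome 18. For 105 members, no protein-coding gene was in reach.

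The members lay far from one another along the chromosomes, and the spacing that so small a set would show anyway was not computed. The median distance from a member to the nearest other member was 2520000 bp, none lay within 10 kb of another, and 16 lay within 100 kb. An early-only Tle4 region lay within 100 kb of 53.1% of the members, at a median distance of 88790 bp. Chromosome 1 held 35 members (10.7%, against 7.91% of all regions) and chromosome 2 held 25 (7.67% against 7.52%). Chromosome 14 held 24 (7.36% against 4.49%), the X chromosome 4 (1.23%, against 2.51% of all regions) and the Y chromosome none. The median distance to the nearest Cux2 peak was 11520 bp, and 14 members (4.29%) lay within 500 bp of one, the closest at 40 bp, near Cldn23. On the other side of the rule, 235 regions were left out for a peak in 1 Cux2 list, of which 101 had it at P48, the longest Cux2 list. Those single Cux2 peaks had a median −log10 p percentile of 27.7% in their lists. The sequence around the summit was unique for reads of 50 bp in nearly all members: every 50-letter word of the window occurred once in the reference for 321 of 326, and the lowest share was 83.4%.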

How the data were processed

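The authors aligned 50-bp ATAC-seq reads to NCBI37 (mm9) with Bowtie2, removed duplicates with Picard 2.7.1, called peaks with MACS2 2.1.1 on each group and kept those at IDR ≤ 0.1, according to the study's methods. Whether read ends were moved to correct for the transposase is not given in the sources used here. The 12 deposited lists give each peak a score, a fold enrichment (a ratio over background) and a −log10 p as the peak caller wrote them, and a summit offset. The score and a further column, the −log10 q, were not used. Read counts and values per replicate are not in them, so the depth of each library is unknown here beyond the single approximate figure that the study's methods give for all of them. Depth and how well replicates match set the length of a list, besides accessibility.

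Of 292994 peaks, 60 on the mitochondrial genome were left out. The largest peak end on chromosome 1, 197068295, lay within the NCBIM37 length of 197195432, and 1 peak passed its chromosome's end. Locations came from GENCODE vM1, with the order promoter (TSS within 1 kb), exon, intron, intergenic. Motifs, GC content and k-mers were read from NCBIM37 with pysam 0.24.0. Intervals are 95% Wilson and cover counting error alone. Exact sign-flip tests ran over the 6 lists or ages and an exact permutation test over the stages, adjusted by Benjamini-Hochberg. Region merging was tested on simulated lists, and the motif search on a random sequence with a planted NFI motif.

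Members and gene lists were chosen with earlier results of these data known. Members set to be named were the 10 with the highest mean percentile, those in all 6 Tle4 lists and those assigned to CThPN genes. Those of genes nearest to at least 3 members were set as well. The text also names members assigned to genes of the other lists and some promoter members. Further ones are shown for their NFI matches or for a close Cux2 peak. Alternatives were a common lowest −log10 p (22.0), equal list length, joining by summits within 150 bp, other promoter distances, protein-coding TSSs, other windows, rank by −log10 p, and leaving out each list.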

Additional observations from a re-analysis of the deposited data

How the results depend on the processing

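Held to the common lowest −log10 p, the rule gave 494 members with a promoter share of 10.9%, a median GC content of 43.8% and the NFI motif in 31.0%, and 198 of the 326 members overlapped them. With equal list lengths it gave 552 members, 18.48%, 44.5% and 22.6%, and 74 of the 326 overlapped them. Against Cux2-only spanning regions, the promoter difference became +0.288 and +2.14 percentage points under these settings, and the GC difference −0.363 and +0.479. The late minus early percentile became +6.39 with equal lengths. Joining by summits gave a median GC content of 44.2%, a promoter difference of −7.60 and a GC difference of −1.87, and GC in 200 bp gave 44.5% and −1.83, each difference at exact sign-flip p = 0.0625. Windows of 400 bp held the NFI motif in 46.9% and AP-1 in 14.4% of members. For these the cause was not tested.

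Leaving out each list in turn gave 106 to 429 members (106 without Tle4 P48), promoter shares of 5.35% to 6.604%, GC medians of 41.8% to 43.3%, NFI shares of 31.1% to 41.2% and AP-1 shares of 6.604% to 8.65%. The promoter difference ran from −36.2 to −33.3 within Tle4 lists and from −11.5 to −3.81 against Cux2 regions, the GC difference from −3.63 to −0.731, both smallest without Cux2 P48, the NFI difference from 17.1 to 28.5, and the late minus early percentile from −14.7 without Tle4 P48 to −0.768 without Tle4 P21. With 5 ages or lists left, the sign-flip test cannot go below 0.0625, so lost calls there come from the smaller number. The NFI difference and the promoter difference within Tle4 lists kept direction under every alternative run. No paired analysis was possible because each list pools its 2 replicates, so numbered replicates cannot be matched. The sign-flip tests pair ages or lists instead.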
